A study of Homo sapiens with 14 samples.

Results

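Nascent transcription in A549 cells, a human lung adenocarcinoma line, was compared between cells given the PRMT5 inhibitor GSK591 at 1 µM for 3 h and untreated cells. The assay was PRO-seq (precision run-on sequencing), in which engaged RNA polymerases in permeabilized cells add labelled nucleotides to their transcripts, so that reads follow ongoing transcription and not the stock of finished RNA. The comparison rests on 4 libraries of the 14 in the study, 2 per group, selected by their labels alone. About 10000000 cells went into each library and 0.01% DMSO is recorded for every group, the untreated one included. The untreated cells carry a 15 min label and no 3 h counterpart of them is analysed here, so the inhibitor and the hours of culture and handling cannot be told apart in any result below. For context, 2 further groups of 2 libraries were read beside them: cells given 1 µM GSK591 for 15 min and cells given 1 µM MS023, an inhibitor of the type I arginine methyltransferases, for 3 h. Separate cultures are not stated for the replicates, so the p-values measure the spread between these libraries, which may be technical.

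PRMT5 works in a complex with WDR77 and is the main enzyme that dimethylates arginines symmetrically. Its known substrates include the Sm proteins SNRPB, SNRPD1 and SNRPD3, which form the core of the spliceosomal small nuclear ribonucleoproteins, as well as histones, transcription elongation factors and RNA-binding proteins rich in arginine and glycine. The type I enzymes, of which PRMT1 is the most active, make asymmetric dimethylarginine instead.

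The 4 libraries held 9606938 and 9343048 counts in untreated cells and 9219869 and 7780485 counts after 3 h of GSK591. Mitochondrial genes took 54.05% and 53.79% of the counts in untreated cells and 47.34% and 43.55% with GSK591. Replicates correlated at Pearson's r of 0.983 (untreated) and 0.982 (GSK591 3 h) on a log2 scale across genes, which are not independent replicates, and the 2 libraries of each pair differed beyond sampling noise. Of 21 lung epithelial and A549 markers, 19 were tested and none was called with edgeR, 7 of them at an unadjusted p under 0.05 (median log2 fold change -0.07). Their summed level was 1785 and 1797 CPM (counts per 1000000 counts of the library) in untreated cells and 1668 and 1591 CPM with GSK591. KRT7, ALDH3A1 and KRT8 led them, while SFTPA1 had 0 reads in all 4 libraries and NKX2-1, a lung lineage factor, had 3, 1, 0 and 0 reads. The epithelial markers EPCAM and CDH1 were also low, at 18 to 28 and 14 to 23 reads. Markers of other cells stayed low: 11 blood cell markers summed to between 11.0 and 14.1 CPM, 10 fibroblast markers to between 14.6 and 15.9 CPM, and 8 endothelial markers to 34.96 and 27.7 CPM in untreated cells, most of it CLDN5, which stood at 31.65 and 38.37 CPM with GSK591. PTPRC, DCN, POSTN and ERG had at most 1 read in any of the 4 libraries. Other members were read more often: HBA1 had 37 to 53 reads, CD14 27 to 31, COL1A1 54 to 69 and ACTA2 68 to 75. No tested member of these 3 lists was called or had an unadjusted p under 0.05 in edgeR (4, 2 and 1 tested, with median log2 fold changes of -0.21, 0.03 and 0.22).

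After 3 h of GSK591, 2419 of 21910 genes tested were called (11.0%), at a Benjamini-Hochberg adjusted p under 0.05 in edgeR's quasi-likelihood test, and 5208 had an unadjusted p under 0.05. Of these, 1588 genes were higher (7.25% of those tested) and 831 were lower (3.79%). Rises were larger than falls: the median log2 fold change was 0.64 among genes called higher and -0.53 among genes called lower. A log2 fold change past 1 was reached by 320 of the raised and 109 of the lowered genes. In all 2419 called genes the libraries of the groups did not overlap, which was also so for 54.4% of all genes tested. Where a lack of overlap is given for a called gene below, it is a description and adds no support to the call. The split between rises and falls depended on scaling, because the scaling used here rests on no external standard and measures a change against the typical gene. Scaled by library size alone, 1960 genes were higher and 197 lower, a share of 90.9% higher against 65.6%, and the median of all genes moved from -0.01 to 0.12 on the log2 scale. DESeq2 called 953 genes higher and 389 lower. The number called was 1412 and 1248 without GSK591 3 h replicate 1 or 2, and 1317 and 1092 without untreated replicate 1 or 2. Changes below are given with TMM scaling, relative to a median of -0.01. In these bulk samples, fewer cells of a type and less RNA per cell cannot be told apart. A gene said below to share exons overlaps the exons of another annotated gene. As the strand setting of the counting is not stated, its reads are uncertain. Of the called genes, 884 higher and 430 lower share no exon, which is 7.22% and 3.51% of the 12251 such genes tested.

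Among non-coding genes that averaged 2 CPM or more, the largest rises came from the ribosomal DNA repeats, the tandem copies that RNA polymerase I reads to make ribosomal RNA. MicroRNA genes are annotated within or beside the transcribed units, so their counts follow transcription of the repeat as well as any microRNA. The mature forms held in the RefSeq table (GRCh38.p14) are shown because they identify the stretches that rose. Bases 2 to 8, the seed, are in capitals.
hsa-miR-3648 (MIR3648-2, chr21:8987026-8987046, plus strand): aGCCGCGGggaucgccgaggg
hsa-miR-6724-5p (MIR6724-2, chr21:8249515-8249537, and MIR6724-4, chr21:8432540-8432562, plus strand): cUGGGCCCgcggcgggcgugggg
The seeds, GCCGCGG and UGGGCCC, differ. GC makes up 81.0% of the first and 91.3% of the second. The second sequence is the same at both of its positions, and reads of such copies cannot be assigned to a single one.

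Of 30 transcripts listed for the repeats, 13 were in the table and 11 were tested, and all 11 rose (7.25% of all genes tested did), with a median log2 fold change of 3.71. MIR3648-1 (chr21:8208473-8208652, plus strand, GRCh38) stood at 34.4 and 39.6 CPM in untreated cells and at 1996 and 1423 CPM with GSK591. Both treated libraries lay far above both untreated ones, a log2 fold change of 5.53 ± 0.36 (SE, n = 2 per group; edgeR adjusted p 1.9e-14). MIR3687-2 (chr21:8987370-8987430, plus strand) went from 56.2 and 68.1 CPM to 2307 and 2094 CPM (5.14 ± 0.38, adjusted p 9.1e-13). MIR6724-2 was far less abundant, at 2.37 and 1.42 CPM before and 23.0 and 30.4 CPM after, and rose by 3.80 ± 0.24 (adjusted p 1.8e-14). The 8 microRNA genes spanned log2 fold changes of 3.43 to 5.53. By contrast the 5.8S ribosomal RNA genes RNA5-8SN1, RNA5-8SN2 and RNA5-8SN3, which lie inside the same units, rose by 0.67, 0.69 and 0.71. RNA5-8SN3 went from 1565 and 1312 CPM to 2183 and 2511 CPM (0.71 ± 0.17, adjusted p 0.0044). The 5.8S genes were not called by DESeq2, without untreated replicate 2 or without GSK591 3 h replicate 2, when 8 of the 11 transcripts were called. All 11 lie on chromosome 21, and genes of the same family (MIR3648, MIR3687, MIR6724 or 5.8S) are repeated copies of each other, so that the 11 are not independent measurements. Transcripts of 18S, 28S and 45S units had no match in the table and were not analysed here.

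The factors that drive RNA polymerase I showed no shift of that kind. Of 47 polymerase I subunits and nucleolar factors tested, 3 rose and 2 fell (6.38% and 4.26%, near the 7.25% and 3.79% of all genes tested), with a median log2 fold change of -0.11. UBTF, which holds ribosomal DNA in an open state, went from 104 and 112 CPM to 165 and 156 CPM (0.58 ± 0.10, adjusted p 5.9e-05). The polymerase I subunit POLR1E rose by 0.65 ± 0.15 (adjusted p 0.0017), and NOP10, a small H/ACA ribonucleoprotein component at 0.99 to 2.04 CPM in untreated cells, by 1.46 ± 0.38 (adjusted p 0.0081). TCOF1, a nucleolar scaffold, fell by 0.44 on the log2 scale, and DKC1, the pseudouridine synthase that partners with NOP10, fell by 0.47 (adjusted p 0.0032 and 0.032). UBTF and DKC1 share exons with other genes.

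Among protein-coding genes that averaged 2 CPM or more, FGF18, a growth factor that acts on lung and cartilage, rose most. FGF18 (ENSG00000156427.7, chr5:171419656-171457623, plus strand, 5 exons) stood at 1.29 and 1.64 CPM in untreated cells and at 15.6 and 13.9 CPM with GSK591, counts of 12 and 15 against 148 and 120 reads. The 10.0-fold rise (log2 3.32 ± 0.29, adjusted p 4.3e-11) lay between 3.17 and 3.51 on the log2 scale whichever library was left out. EFNB2, which encodes the membrane-bound ligand ephrin-B2, stood at 1.40 and 1.75 CPM and then at 9.496 and 9.534 CPM (2.58 ± 0.28, adjusted p 1.4e-08), and it shares exons. UBTD2, a ubiquitin domain protein, went from 6.34 and 5.69 CPM to 26.6 and 31.5 CPM (2.27 ± 0.23, adjusted p 2.9e-09). The mitochondrial phosphatase gene PPTC7 went from 5.49 and 6.24 CPM to 23.7 and 23.6 CPM (2.01 ± 0.18, adjusted p 1.3e-10). MAP3K1, an upstream kinase of the JNK and ERK pathways that shares exons, went from 5.70 and 5.47 CPM to 22.5 and 23.5 CPM (2.04 ± 0.19, adjusted p 3e-10). In each of these 5 genes both treated libraries lay above both untreated ones, as the rule that named them required.

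The other genes of this rank were PDXP, GRAMD2A, BHLHA9, AVEN, CPE, IGFBPL1 and LYSET, with log2 fold changes between 1.96 and 2.61. AVEN, an inhibitor of cell death, stood at 23.5 CPM in both treated libraries against 5.81 and 5.25 CPM. PDXP and LYSET share exons, and BHLHA9, CPE and IGFBPL1 stood at 0.86 to 1.75 CPM in untreated cells.

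Among protein-coding genes of at least 20 CPM, the 6 that rose most are named next. CRLS1, the cardiolipin synthase of mitochondria, went from 14.5 and 14.6 CPM to 45.4 and 53.5 CPM (chr20:6006090-6040053, plus strand; 1.76 ± 0.15, adjusted p 1.8e-11). CDK5R1, the p35 activator of the kinase CDK5, went from 20.97 and 21.24 CPM to 67.6 and 64.4 CPM (chr17:32486619-32491256, plus strand; 1.65 ± 0.12, adjusted p 2.3e-13). CEBPB, a leucine zipper transcription factor of inflammatory and metabolic genes, went from 26.99 and 23.21 CPM to 85.9 and 70.5 CPM (1.64 ± 0.14, adjusted p 2e-11), and it shares exons. The libraries of the groups did not overlap in these 3 genes, as the rule that named them required. COPRS, PKD2, a cation channel of the primary cilium, and MIB2, a ubiquitin ligase of the Notch pathway, rose by 1.65, 1.59 and 1.56. MIB2 shares exons.

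**Figure D1:**
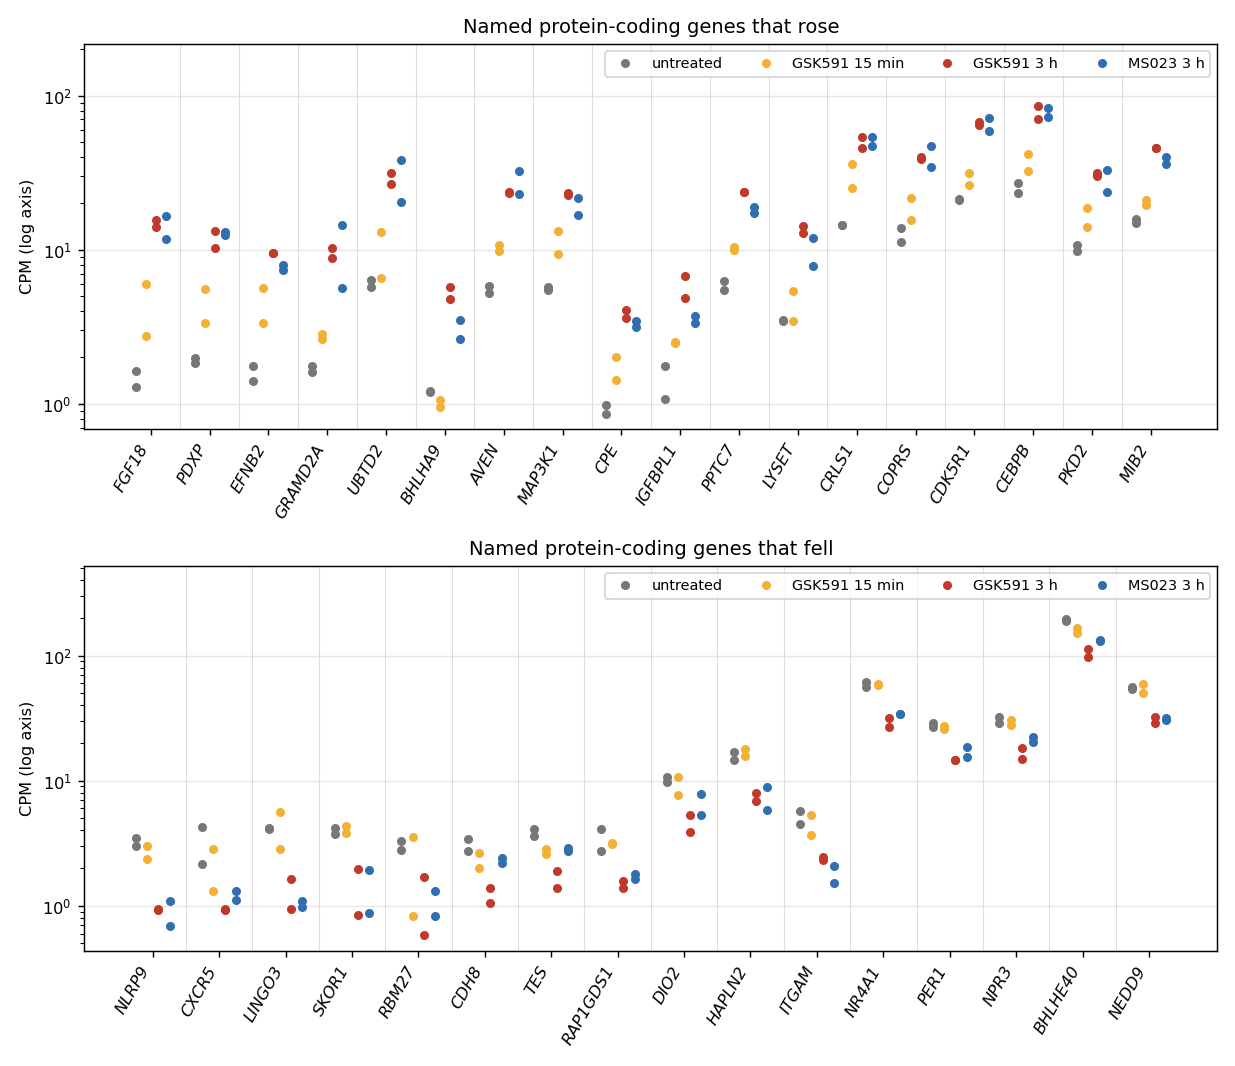
CPM of the named protein-coding genes in each library (log axis, 2 points per group), for genes that rose (upper panel) and fell (lower panel) after 3 h of GSK591. The GSK591 3 h libraries of FGF18 lay at 15.6 and 13.9 CPM against 1.29 and 1.64 CPM in untreated cells, and those of BHLHE40 at 97.5 and 112 CPM against 195 and 189 CPM.

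Falls were smaller. NR4A1, an orphan nuclear receptor of the immediate early class, went from 56.0 and 61.8 CPM to 27.0 and 31.9 CPM (-1.003 ± 0.107, adjusted p 7.1e-09). BHLHE40, a repressor in the circadian clock, went from 195 and 189 CPM to 97.5 and 112 CPM (-0.88 ± 0.10, adjusted p 1.3e-08), and PER1, a core clock repressor, from 26.89 and 29.01 CPM to 14.6 and 14.8 CPM (-0.93 ± 0.15, adjusted p 2.6e-05). NEDD9, a scaffold of focal adhesions, went from 54.0 and 56.5 CPM to 28.9 and 32.2 CPM, and NPR3, the natriuretic peptide clearance receptor, from 29.1 and 32.4 CPM to 15.0 and 18.1 CPM. In all 5 genes both treated libraries lay below both untreated ones, as the rule that named them required. NR4A1, BHLHE40, PER1 and NEDD9 share exons. The authors' deposited table gives NR4A1 a log2 fold change of -1.06 and CDK5R1 one of 1.64. At an adjusted p under 0.05 it holds far fewer genes than were called here: 535 of 8812 with such a value, 388 higher and 147 lower. Of these, 534 were also called here, all in the same direction. It gives no adjusted p for FGF18, EFNB2, DIO2 or NLRP9.

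The remaining falls, apart from HAPLN2, DIO2 and NPR3, stood on few reads. NLRP9, CXCR5, LINGO3, SKOR1, RBM27, CDH8, TES, RAP1GDS1 and ITGAM had log2 fold changes of -1.78 to -1.10 from levels between 2.15 and 5.69 CPM, and 7 of these 9 share exons. NLRP9 kept its call under every alternative that gave it an adjusted p, and the other 8 lost theirs under 1 to 5 of 12. HAPLN2, a link protein of the extracellular matrix that shares no exons, went from 14.7 and 17.1 CPM to 6.86 and 7.91 CPM (-1.11 ± 0.18, adjusted p 2.1e-05). DIO2, the deiodinase that activates thyroid hormone, went from 9.68 and 10.7 CPM to 3.90 and 5.35 CPM (-1.15 ± 0.23, adjusted p 0.00041), and it shares exons. Outside protein-coding genes, CHILL1, AC015712.1, AC023137.1 and BOLA2P3 fell most, by 1.61, 1.40, 1.38 and 1.38 on the log2 scale, from 3.66 to 5.27 CPM.

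More than the background share of heat shock chaperone genes rose, most of them cytosolic. The heat shock response is driven by HSF1, which binds repeats of the unit GAA in alternating orientation and raises chaperones and their partners when unfolded protein accumulates. Of 22 chaperone genes tested, 13 rose and none fell (59.1% against 7.25% of all genes tested), with a median log2 fold change of 0.50. HSPH1, a nucleotide exchange factor of HSP70, went from 21.1 and 17.5 CPM to 36.8 and 35.9 CPM (chr13:31134974-31162388, minus strand; 0.91 ± 0.13, adjusted p 1.4e-06). HSPA1A, the inducible HSP70, went from 51.5 and 54.0 CPM to 93.1 and 80.1 CPM (0.72 ± 0.10, adjusted p 2.5e-06), though its near-identical copy HSPA1B (0.54 ± 0.11) can take some of its reads. BAG3, which links HSP70 to autophagy, went from 22.37 and 22.01 CPM to 38.6 and 36.2 CPM (0.75 ± 0.13, adjusted p 6.9e-05). In these genes the treated libraries lay above the untreated ones without overlap. The HSP90 co-chaperones FKBP4, STIP1 and CHORDC1 rose by 0.75, 0.63 and 0.65, the J-protein DNAJB1 by 0.48, HSP90AA1, the inducible HSP90, by 0.64, the small heat shock protein HSPB1 by 0.51 and the mitochondrial co-chaperonin HSPE1 by 0.56. HSPA8, the constitutive HSP70, rose by 0.33, and HSPA1L, at 1.31 to 2.26 CPM in untreated cells, by 1.42. Of these, FKBP4, CHORDC1, DNAJB1, HSP90AA1, HSPE1, HSPA8 and HSPA1B share exons.

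The 9 chaperone genes that were not called included the constitutive HSP90AB1 (-0.13 ± 0.13, adjusted p 0.62), HSPA4 (-0.01), the mitochondrial HSPD1 (0.07) and HSPA9 (-0.18), and HSF1 itself (0.02 ± 0.11, adjusted p 0.94). With 1 library left out, 8 were called without untreated replicate 2, 11 without untreated replicate 1, 9 without GSK591 3 h replicate 1 and 12 without GSK591 3 h replicate 2, and DESeq2 called 11. The median of the list stayed between 0.40 and 0.63 on the log2 scale under the alternatives tried.

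The letters that HSF1 recognizes were searched in the 250 bases before the RefSeq start (GRCh38.p14), on both strands, as GAANNTTC or TTCNNGAA and, for 3 units, as GAANNTTCNNGAA or TTCNNGAANNTTC, each of which also holds the shorter forms. Promoters were found for 20 of the 22 chaperone genes. The shorter forms were in 6 of 12 called and 1 of 8 uncalled chaperone promoters, against 11.7% of 27305 promoters and 8.59% of 11540 promoters of protein-coding genes tested. The 6 include HSPA1A and its near-identical copy HSPA1B, so they are not independent of each other. The 3-unit forms were in 0.439% of all promoters and in those of the called genes CHORDC1 and HSPA8. For that reason a stretch of 80 bases of each is printed, with every match inside it in capitals. Both promoters hold further matches in the 250 bases searched, outside the printed stretch.
CHORDC1 (chr11:90223054-90223133, minus strand, 84 to 5 bases before the start): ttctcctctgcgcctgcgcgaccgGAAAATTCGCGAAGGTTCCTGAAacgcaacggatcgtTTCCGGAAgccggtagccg
HSPA8 (chr11:123062146-123062225, minus strand, 89 to 10 bases before the start): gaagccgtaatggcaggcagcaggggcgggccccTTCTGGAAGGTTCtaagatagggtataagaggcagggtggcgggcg
A match of letters is a description and not a binding site. HSPH1, BAG3, DNAJB1 and STIP1 rose with no match in this window.

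Targets of the tumour suppressor p53, which is wild type in A549 cells, also rose. Of 29 genes tested, 12 rose and none fell (41.4% against 7.25% of all genes), with a median log2 fold change of 0.29. PHLDA3, a repressor of AKT, went from 41.4 and 38.3 CPM to 67.5 and 84.8 CPM (0.93 ± 0.12, adjusted p 3.7e-07). BTG2, an antiproliferative gene, went from 19.5 and 15.7 CPM to 33.5 and 30.0 CPM (0.85 ± 0.14, adjusted p 1.8e-05). FDXR, the ferredoxin reductase of mitochondria, went from 31.3 and 33.7 CPM to 52.4 and 56.3 CPM (0.74 ± 0.11, adjusted p 6.5e-06). PPM1D, the phosphatase WIP1 that switches p53 signalling off, went from 25.3 and 24.1 CPM to 37.2 and 44.9 CPM (0.73 ± 0.12, adjusted p 2.6e-05). Treated and untreated libraries did not overlap in these 4 genes. Rises were also called for ZMAT3 (0.82), SPATA18 (0.79), SESN2 (0.67), PLK3 (0.41), DDB2 (0.40), RPS27L (0.36), AEN (0.33) and BAX (0.32).

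The genes best known as readouts of p53 were not called. CDKN1A, the p21 inhibitor of the cell cycle, stood at 20.1 and 21.8 CPM in untreated cells and at 25.5 and 24.9 CPM with GSK591 (0.27 ± 0.15, adjusted p 0.27). MDM2, the ubiquitin ligase of p53, stood at 83.3 and 74.8 CPM and then at 91.4 and 96.8 CPM (0.25 ± 0.10, adjusted p 0.11). Both share exons. The apoptosis gene BBC3 had a log2 fold change of 0.00 and the stress cytokine GDF15 one of 0.11. Of the list, 6 genes were called without untreated replicate 2, 7 without untreated replicate 1 or without GSK591 3 h replicate 1, 8 without GSK591 3 h replicate 2, and 8 by DESeq2. The median stayed between 0.26 and 0.41.

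**Figure D2:**
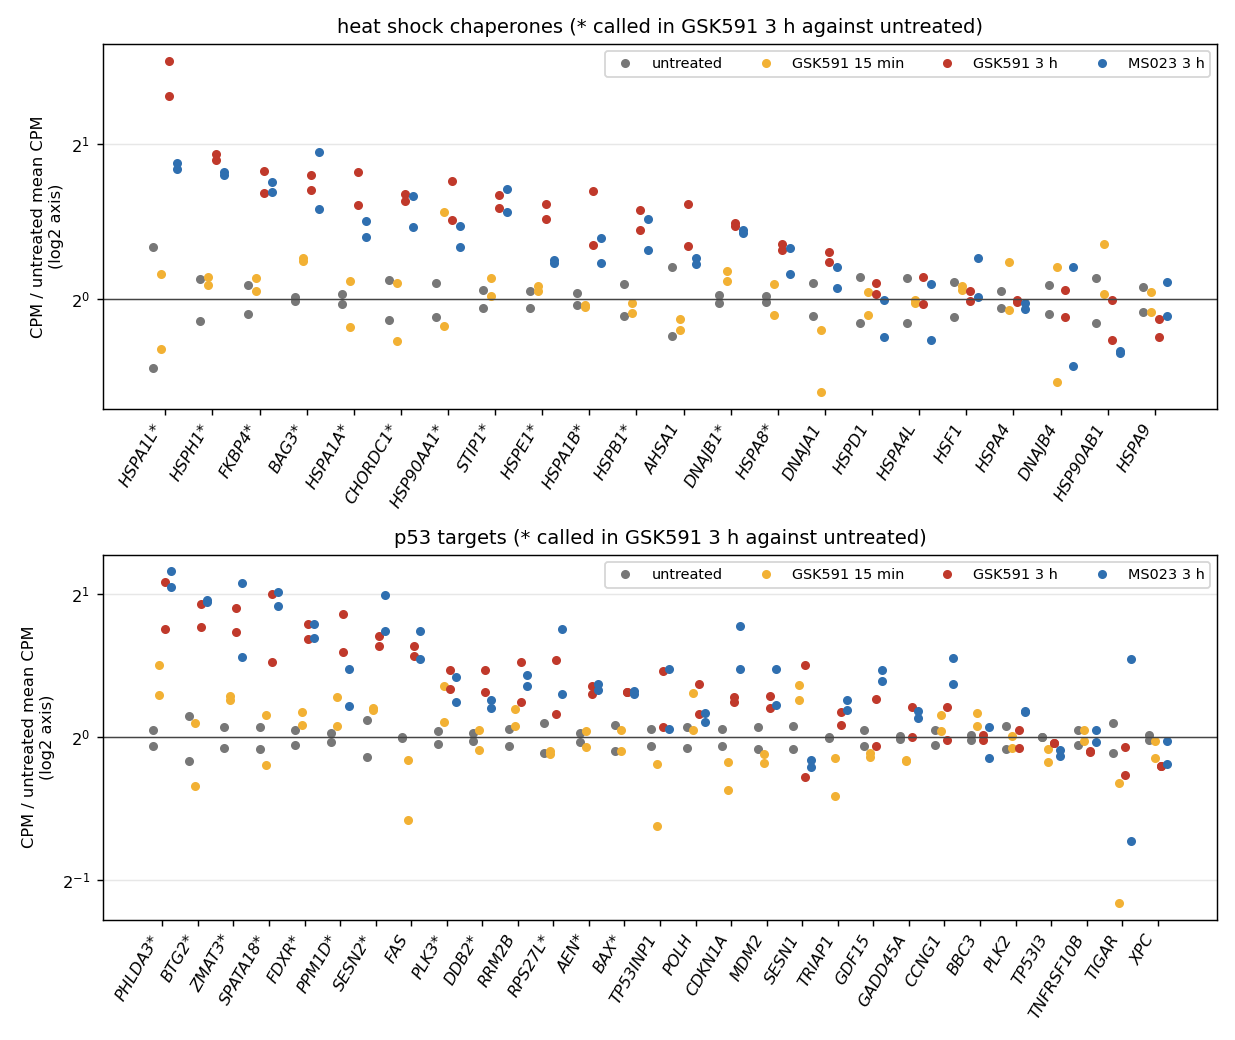
Level of every tested heat shock chaperone (upper panel) and p53 target (lower panel) in each library, as CPM divided by the mean of the untreated libraries (log2 axis, 2 points per group); an asterisk marks a gene called in GSK591 3 h against untreated. The 13 called chaperones lay above the untreated libraries at 3 h, while HSP90AB1, HSPA4 and HSPA9 did not, and CDKN1A and MDM2 carry no asterisk.

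Lists of other stress responses are set against the 7.25% of all genes tested that were called higher and the 3.79% called lower. Among 26 targets of NRF2, the regulator of antioxidant genes, 6 rose and 2 fell (both above the shares of all genes; median 0.06). SRXN1, which repairs oxidized peroxiredoxins, went from 10.4 and 10.2 CPM to 24.5 and 28.9 CPM (1.37 ± 0.16, adjusted p 7.3e-08). The epoxide hydrolase gene EPHX1 rose by 0.95, the ferritin genes FTH1 and FTL by 0.63 and 0.44, the glutathione synthesis gene GCLC by 0.49 and AKR1C3 by 0.39. TXNRD1, thioredoxin reductase, fell by 0.35 on the log2 scale and OSGIN1 fell by 0.30, calls that were lost with library-size scaling. Without GSK591 3 h replicate 2 the median was -0.02. The commonly used readouts NQO1 and HMOX1 had log2 fold changes of 0.15 and -0.16 and were not called (adjusted p 0.45 and 0.46). SRXN1, EPHX1, FTH1, GCLC and OSGIN1 share exons.

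Of 32 genes of the integrated stress response, which slows translation and raises ATF4, 3 rose and 2 fell (9.38% and 6.25%; median 0.03): CEBPB, SESN2 and the seryl-tRNA synthetase gene SARS1 (0.64) rose, and STC2 (-0.50) and MTHFD2 (-0.51) fell. ATF4 itself stood at 145 and 157 CPM and then at 126 and 140 CPM (-0.18 ± 0.10, adjusted p 0.24). Of 20 genes of the unfolded protein response, ERN1, the sensor kinase IRE1 of the endoplasmic reticulum, rose by 0.63 ± 0.11 (adjusted p 5.2e-05) and none fell. That is 5.0% higher, below the share of all genes. The median was 0.02, and HSPA5, the chaperone BiP, had a log2 fold change of -0.09. In cholesterol synthesis and uptake, 4 of 24 genes rose and none fell (16.7% and 0.0%; median 0.17). They were the enzymes SQLE (0.56), MVD (0.50) and IDI1 (0.48) and the sterol sensor INSIG1 (0.52). Of 29 hypoxia and glycolysis genes, EGLN1, an oxygen sensor, rose by 0.48 and GAPDH fell by 0.35 on the log2 scale, 3.45% in each direction and below the shares of all genes, with a median of -0.03.

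Immediate early genes respond to growth factors and stress within minutes. Of 33 tested, 6 rose and 6 fell (18.2% each way, against 7.25% and 3.79% of all genes; median -0.14). JUN, a subunit of AP-1, went from 81.4 and 88.8 CPM to 47.4 and 46.9 CPM (chr1:58780788-58784327, minus strand; -0.85 ± 0.10, adjusted p 5e-08). Its relative JUND went the other way, from 57.0 and 57.5 CPM to 86.3 and 94.6 CPM (chr19:18279760-18281622, minus strand; 0.66 ± 0.12, adjusted p 7.4e-05). Neither gene's groups overlapped, and neither gene shares exons. The messenger RNA decay factor ZFP36L1 fell by 0.66 on the log2 scale and KLF10 fell by 0.60, while SRF, the serum response factor, rose by 0.69 and IER5, a cofactor of HSF1, by 0.50. FOS, MYC, EGR1 and DUSP1 had log2 fold changes of -0.23, -0.16, 0.18 and -0.05 and were not called.

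Of 24 glucocorticoid targets, 2 rose and 4 fell (8.33% and 16.7%; median -0.01), in cells given no glucocorticoid. The 2 that rose were CEBPB and CEBPD, a related factor, which went from 51.6 and 53.4 CPM to 100 and 108 CPM (0.99 ± 0.11, adjusted p 3.8e-08). PER1, KLF6 (-0.69), TSC22D3, the anti-inflammatory factor GILZ (-0.71), and ANGPTL4 (-0.37) fell. TSC22D3 and ANGPTL4 share exons. Scaled by library size alone, the median was 0.12. In the TGF-beta and ID list, 4 of 20 genes rose and 3 fell (20.0% and 15.0%; median -0.01, or 0.13 scaled by library size alone). SMURF2, a ubiquitin ligase that degrades the receptor complex, went from 17.2 and 15.9 CPM to 39.99 and 47.44 CPM (1.40 ± 0.16, adjusted p 2e-08). The decoy receptor BAMBI rose by 0.74, the ligand TGFB1 by 0.44 and the inhibitory SMAD7 by 0.32. Among those that fell were the ligand TGFB2, from 21.9 and 23.10 CPM to 13.9 and 13.7 CPM (-0.70 ± 0.14, adjusted p 0.00056), and PMEPA1 (-0.48). SMURF2, TGFB1, TGFB2 and PMEPA1 share exons. ID1 and ID3 had -0.22 and -0.06 and were not called.

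In the list of NF-kappa-B and cytokine genes, 2 of 23 rose and 2 fell (8.7% each way, the rises near the 7.25% of all genes; median -0.18). The inhibitor NFKBIE rose by 0.71 and NFKBIZ by 0.40, and the subunit gene NFKB2 and the cytokine LIF fell by 0.69 and 0.64 on the log2 scale. Of 27 interferon-stimulated genes, ISG20, an exonuclease, rose by 0.46 and none fell (3.7% higher, below the share of all genes; median 0.01). Among 18 clock genes, 1 rose and 2, PER1 and BHLHE40, fell (5.56% and 11.1%), and the median was -0.11. TEAD1, TEAD4 and FJX1 rose by 0.42, 0.49 and 0.40 among 20 genes of YAP and TEAD, and none fell (15.0% and 0.0%; median -0.07). The calls of TEAD4 and FJX1 were lost by DESeq2.

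**Figure D3:**
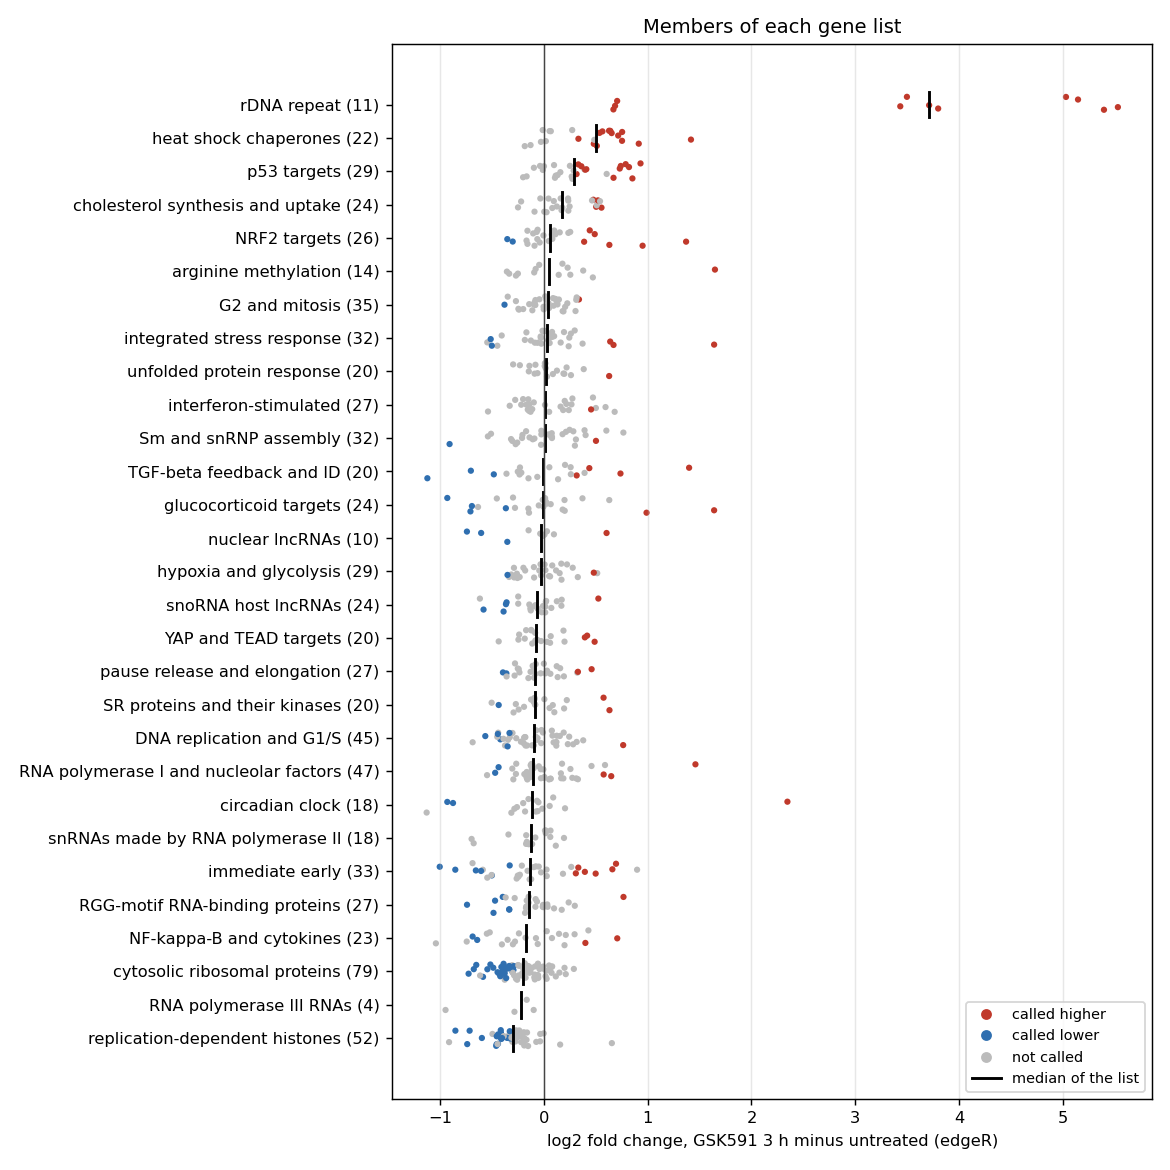
Log2 fold change (edgeR, GSK591 3 h minus untreated) of every tested member of 29 gene lists, with the number tested in parentheses; red and blue points were called higher and lower, grey points were not called, and black bars are list medians. The bars lie at 3.71 for ribosomal DNA repeat transcripts, 0.50 for heat shock chaperones, 0.29 for p53 targets, -0.20 for ribosomal proteins and -0.30 for replication-dependent histones.

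Ribosomal protein genes fell by small amounts. Of 79 cytosolic ribosomal protein genes tested, 26 fell and none rose (32.9% against 3.79% of all genes called lower), with a median log2 fold change of -0.20. RPS23 went from 137 and 147 CPM to 82.8 and 88.9 CPM (-0.72 ± 0.10, adjusted p 7.8e-07) and RPL13A from 150.5 and 162 CPM to 94.0 and 105 CPM (-0.65 ± 0.09, adjusted p 2.3e-06). The groups did not overlap in either gene. RPL10 and RPL32 fell by 0.67 and 0.59 on the log2 scale. All 4 share exons, and the snoRNAs and processed copies of this family make single values uncertain. At the other end, RPL39 had a log2 fold change of 0.29 ± 0.13 (adjusted p 0.17), the highest of the list. Scaling by library size alone left 5 genes called, with a median of -0.06. With 1 library left out, 7 were called without GSK591 3 h replicate 1, 18 without GSK591 3 h replicate 2, 15 without untreated replicate 1 and 9 without untreated replicate 2. The median kept its sign in all of these.

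Replication-dependent histone genes, which sit in clusters on chromosomes 6 and 1 and are transcribed in S phase, were lower as well. Of 52 tested, 20 fell and none rose (38.5% against 3.79%), with a median log2 fold change of -0.30. Among those called, the 4 linker histones H1-3, H1-4, H1-5 and H1-2 fell most. H1-3 (chr6:26234268-26234933, minus strand, 1 exon) went from 173 and 184 CPM to 98.7 and 99.1 CPM (-0.85 ± 0.10, adjusted p 2.7e-08). H1-4 went from 234 and 247 CPM to 144 and 144.5 CPM (-0.74 ± 0.10, adjusted p 1.2e-06), and H1-5 and H1-2 fell by 0.71 and 0.60 on the log2 scale. Each kept its untreated and treated libraries apart. The called core histone genes fell by less, for example H3C13 (-0.46), H2BC5 (-0.46) and H2AC20 (-0.42). The H4 gene H4C1 had -0.19 ± 0.13 and was not called (adjusted p 0.42). Members of the family are near-identical, so reads may be split among them. Scaling by library size alone left 4 called genes and a median of -0.17, and DESeq2 called 17. Without GSK591 3 h replicate 1 or 2 the number was 13 and 9, and without untreated replicate 1 or 2 it was 12 and 10.

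Other cell cycle genes are given beside the same shares of all genes, 7.25% higher and 3.79% lower. Of 45 genes of DNA replication and G1/S, CCNE1, cyclin E1, rose by 0.76 ± 0.18 (adjusted p 0.0034), and MCM5 (-0.42), GINS2 (-0.56), POLE (-0.35), ORC6 (-0.44) and TK1 (-0.33) fell (2.22% higher and 11.1% lower; median -0.10). Of 35 genes of G2 and mitosis, PLK1 rose by 0.34 and AURKB fell by 0.38 on the log2 scale (2.86% each way; median 0.04). The call of PLK1 was lost by DESeq2 and that of AURKB by library-size scaling. In the DNA replication and G1/S list, library-size scaling called 1 gene higher and 0 lower, with a median of 0.035. DESeq2 called 3 lower in that list.

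The genes of the targeted pathway were mostly not called. PRMT5 stood at 13.7 and 13.8 CPM in untreated cells and at 15.0 and 15.3 CPM with GSK591 (0.14 ± 0.15, adjusted p 0.63), and its partner WDR77 at 5.70 and 6.79 CPM and then at 4.54 and 5.23 CPM (-0.36 ± 0.26, adjusted p 0.43). The inhibitor acts on the enzyme and not on its gene, so these levels do not check its action. PRMT1 stood at 94.8 and 94.3 CPM and then at 76.6 and 80.3 CPM (-0.27 ± 0.09, adjusted p 0.053). Of 14 genes of arginine methylation, COPRS alone was called (7.14%, against 11.0% of all genes). COPRS encodes a cofactor that recruits PRMT5 to histone H4 (chr17:31851864-31859337, minus strand) and went from 11.2 and 13.9 CPM to 39.8 and 38.8 CPM (1.65 ± 0.17, adjusted p 2.8e-09), with no overlap of the groups. The median of the list was 0.05.

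Among 32 genes of Sm and LSM proteins and of snRNP assembly, 1 rose and 1 fell (3.12% each way; median 0.01). SNRPD1, a symmetrically methylated Sm protein, went from 14.5 and 14.6 CPM to 7.91 and 7.56 CPM (-0.91 ± 0.24, adjusted p 0.0083), a call that did not hold by leaving out any of the 4 libraries or by DESeq2. LSM4, a subunit of the ring that binds U6, rose by 0.50. SNRPB stood at 29.5 and 30.9 CPM and then at 28.3 and 28.4 CPM (-0.09 ± 0.12, adjusted p 0.70), a difference that was 0.04 when scaled by library size alone. Of 20 SR proteins and their kinases, SRSF9 and SRPK1 rose by 0.63 and 0.57 and SRSF10 fell by 0.43 on the log2 scale (10.0% and 5.0%; median -0.09). Among 27 RGG-motif RNA-binding proteins, a class rich in methylated arginine, KHDRBS1 (Sam68) rose by 0.77 and 6 fell (22.2% against 3.79%; median -0.15). Among the latter were RBM3, a cold-inducible protein, which went from 69.6 and 72.0 CPM to 45.6 and 39.1 CPM (-0.74 ± 0.11, adjusted p 4.4e-06), RBMX (-0.48), CHTOP (-0.47) and HNRNPA1 (-0.40). In this RGG-motif list DESeq2 called 4 lower. Library-size scaling called 1 lower, with a median of -0.02, and the calls of RBMX and HNRNPA1 were lost with it. With 1 library left out the median lay between -0.21 and -0.03.

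Of 27 genes of pause release and elongation, 2 rose and 2 fell (7.41% each way; median -0.08). HEXIM1, the inhibitor of the elongation kinase P-TEFb, went from 176 and 165 CPM to 246 and 222 CPM (0.46 ± 0.10, adjusted p 0.0014), whereas its relative HEXIM2 went from 93.0 and 93.7 CPM to 67.5 and 78.0 CPM (-0.36 ± 0.10, adjusted p 0.010). CDK13 rose by 0.33 and CCNT2, a cyclin of P-TEFb, fell by 0.39 on the log2 scale. Neither call held when any of the 4 libraries was left out, and that of CCNT2 was also lost by DESeq2 and by library-size scaling. The calls of HEXIM1 and HEXIM2 did not hold for every library left out, and that of HEXIM2 was also lost by library-size scaling. With 1 library left out, HEXIM1 lay between 0.386 and 0.521 and HEXIM2 between -0.479 and -0.255. For HEXIM1, HEXIM2, CDK13 and CCNT2 alike the reads are uncertain. All 4 share exons. CDK9, the kinase itself, had 0.13 (adjusted p 0.49).

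Among noncoding lists, falls were called more often than the 3.79% of all genes in snoRNA hosts and nuclear lncRNAs. Of 24 snoRNA host transcripts, DANCR rose by 0.53, and SNHG3 (-0.58), SNHG1 (-0.39), SNHG17 (-0.36) and ZFAS1 (-0.36) fell (4.17% higher and 16.7% lower; median -0.07). All 5 share exons. The falls of the snoRNA hosts depended on the method: DESeq2 called 1 lower, and so did library-size scaling. Their median was 0.065 by library size and 0.016 without GSK591 3 h replicate 1. Of 10 nuclear lncRNAs, MIR17HG rose by 0.60, and MIR22HG (-0.74), MEG3 (-0.60) and NORAD (-0.35) fell (10.0% higher and 30.0% lower; median -0.02), while MALAT1 had -0.15 (adjusted p 0.70). Scaled by library size alone the median was 0.11, and without GSK591 3 h replicate 2 it was 0.02. The calls of MIR17HG and MEG3 were lost by DESeq2. None of 18 small nuclear RNA genes of RNA polymerase II and none of 4 RNA polymerase III transcripts was called with edgeR, and 0 of them had an unadjusted p under 0.05 (medians -0.13 and -0.22). The 13 protein-coding genes of the mitochondrial genome, read by their own polymerase, had a median of -0.49, with 5 called lower and none higher (38.5% against 3.79% of all genes called lower), beside the lower mitochondrial share of counts in both treated libraries.

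Genes called higher were more frequent at promoters rich in GC. A RefSeq promoter, from 250 bases before to 50 after 1 start per gene, was found for 11572 of 14351 protein-coding genes tested and for 81.4% of those called higher. In 5 bands of promoter GC content, from 27.0 to 56.3% up to 73.7 to 94.0%, the share called higher was 5.77%, 5.91%, 8.04%, 11.9% and 15.9%. Among genes of at least 20 CPM it ran from 8.66% to 19.7%. The median GC content was 69.7% for genes called higher and 65.0% for all. For genes called lower 78.1% had a promoter, too few for such a check, which is void for them. Single genes did not follow one pattern. Of the 6 protein-coding genes of at least 20 CPM that rose most, CRLS1 had a promoter GC content of 39.3% and the other 5 had 73.3% to 82.3%. Of the falling genes of that level, NEDD9, NPR3 and NR4A1 had 42.0%, 47.3% and 53.3%, and BHLHE40 and PER1 had 68.0% and 69.0%. The RefSeq start lies inside the GENCODE gene for CRLS1, COPRS, CDK5R1, MIB2, NPR3, BHLHE40 and PER1. For NR4A1 it lies at the outer end of a gene annotated over chr12:52022832-52059507. Starts further inside that gene were not examined, so its GC content holds for this 1 start only. Which start was in use in these cells was not tested. The 100 bases before the start are printed for CEBPB, which rose, and NR4A1, which fell, a pair picked after their values were seen and opposite in GC content, with CG pairs in capitals.
CEBPB (chr20:50190483-50190582, plus strand, 10 CG pairs, promoter GC 77.0%): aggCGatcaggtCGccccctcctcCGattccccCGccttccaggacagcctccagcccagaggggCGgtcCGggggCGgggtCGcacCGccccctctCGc
NR4A1 (chr12:52022732-52022831, plus strand, 3 CG pairs, promoter GC 53.3%): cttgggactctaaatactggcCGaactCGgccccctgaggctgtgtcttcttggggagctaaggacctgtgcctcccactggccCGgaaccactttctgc
Level moved with the calls too: with protein-coding genes in 5 equal groups by mean CPM, 2.30% of the lowest and 14.2% of the highest group were called higher. Genes with 1 exon in the annotation were called higher in 15.8% and lower in 8.67% of 450 cases, against 7.87% and 3.43% of 3992 genes with 17 or more exons. How far GC content, level or gene structure bear on the calls was not tested.

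**Figure D4:**
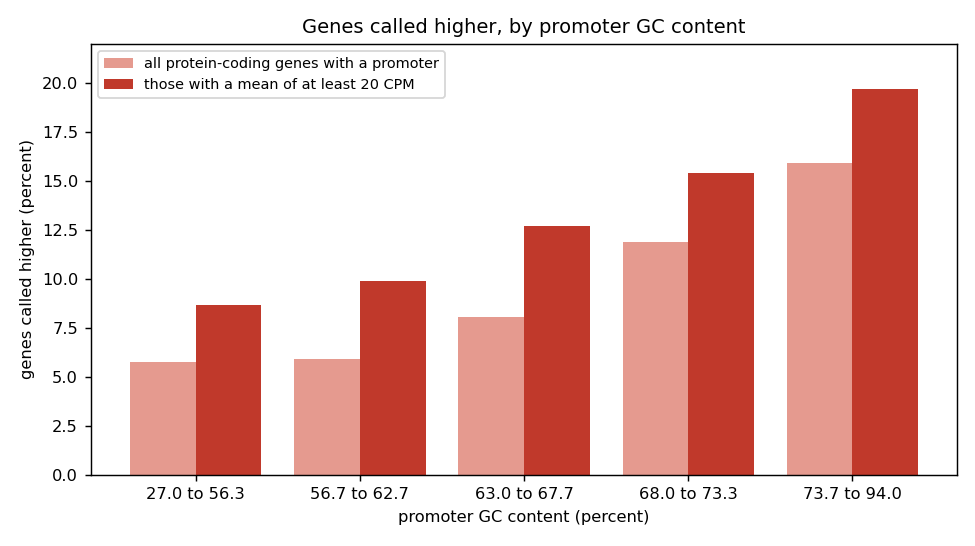
Share of protein-coding genes called higher after 3 h of GSK591 in each of 5 bands of promoter GC content (bars from 0), for all genes with a promoter (light) and those that averaged 20 CPM or more in the same bands (dark). The light bars rise from 5.77% to 15.9% and the dark bars from 8.66% to 19.7%.

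The time within GSK591 treatment was compared next, in cells given the inhibitor for 15 min. The direct test of 3 h against 15 min, which shares the 3 h libraries but no untreated library with the main comparison, called 1405 genes (6.41% of those tested), 799 higher (3.65%) and 606 lower (2.77%). DESeq2 called 659 and library-size scaling 712. The number was 665 and 388 without GSK591 15 min replicate 1 or 2, and 634 and 455 without GSK591 3 h replicate 1 or 2. FGF18 stood at 6.00 and 2.74 CPM at 15 min and was 1.75 ± 0.24 higher on the log2 scale at 3 h (adjusted p 5.5e-06). MIR3648-1 stood at 293 and 84.4 CPM at 15 min, replicates that lay far apart, and was 3.18 ± 0.31 higher at 3 h (adjusted p 6.6e-09). NR4A1, at 58.6 and 59.2 CPM at 15 min, had a difference of -1.004 ± 0.108 (adjusted p 3.5e-08). The 5.8S gene RNA5-8SN3 was at 2562 and 2240 CPM at 15 min, and the difference to 3 h was -0.03 ± 0.17.

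By list, 14 of 22 chaperones were higher at 3 h than at 15 min and none lower (median 0.50), and so were 12 of 29 p53 targets (median 0.40), CDKN1A among them (0.53 ± 0.15, adjusted p 0.027). Of 79 ribosomal protein genes, 14 were lower at 3 h than at 15 min (median -0.20). Beside these list counts, 3.65% of all genes tested were called higher and 2.77% lower at 3 h than at 15 min. Of the histone genes, 5 of 52 were lower at 3 h than at 15 min, and the median difference was -0.05, with H1-3 lower by 0.55 ± 0.10 log2 units (adjusted p 0.00024). In the single libraries, the median log2 ratio of the histone genes to the untreated mean was -0.30 and -0.31 at 3 h of GSK591 and already -0.32 and -0.17 at 15 min. The ratios share the untreated mean and carry no test.

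Set directly against 3 h of MS023, no gene was called with edgeR (0.0%), 1319 of 21910 had an unadjusted p under 0.05, and DESeq2 called 5. With edgeR, 47 were called with no count filter, 9 in a fit of only the groups compared, 5 with the replicate number as a block and 6 without MS023 3 h replicate 1. A p that misses the threshold does not show that the inhibitors act alike, and single intervals were wide. FGF18 stood at 16.5 and 11.6 CPM with MS023, and the difference of GSK591 minus MS023 was 0.06 on the log2 scale (95% interval -0.34 to 0.46). COPRS differed by -0.04 (-0.33 to 0.26), CEBPB by 0.01 (-0.24 to 0.26) and CDK5R1 by 0.02 (-0.19 to 0.23). CDKN1A stood at 35.9 and 29.2 CPM with MS023, a difference of -0.38 (-0.66 to -0.09, adjusted p 0.65). MIR3648-1 was at 781 and 661 CPM with MS023, a difference of 1.25 (0.66 to 1.83, adjusted p 0.17), while MIR6724-2 differed by 0.02 (-0.30 to 0.34). H1-3 stood at 125 and 142 CPM with MS023, a difference of -0.43 (-0.63 to -0.23, adjusted p 0.17), and the median difference over the 52 histone genes was -0.28. In the single libraries the histone median was -0.05 and 0.02 with MS023 against -0.30 and -0.31 with GSK591, all relative to the same untreated mean. The other lists moved with MS023 as well. On the same scale its chaperone median was 0.304 and 0.298 and its p53 target median 0.33 and 0.35. Its ribosomal protein median was -0.25 and -0.17. For these lists the median difference of GSK591 minus MS023 was 0.10, -0.05 and -0.003. PRMT5 was at 11.0 and 11.1 CPM with MS023, a difference of 0.46 (0.13 to 0.79, adjusted p 0.63). The intervals are per gene and not adjusted for the number of genes.

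**Figure D5:**
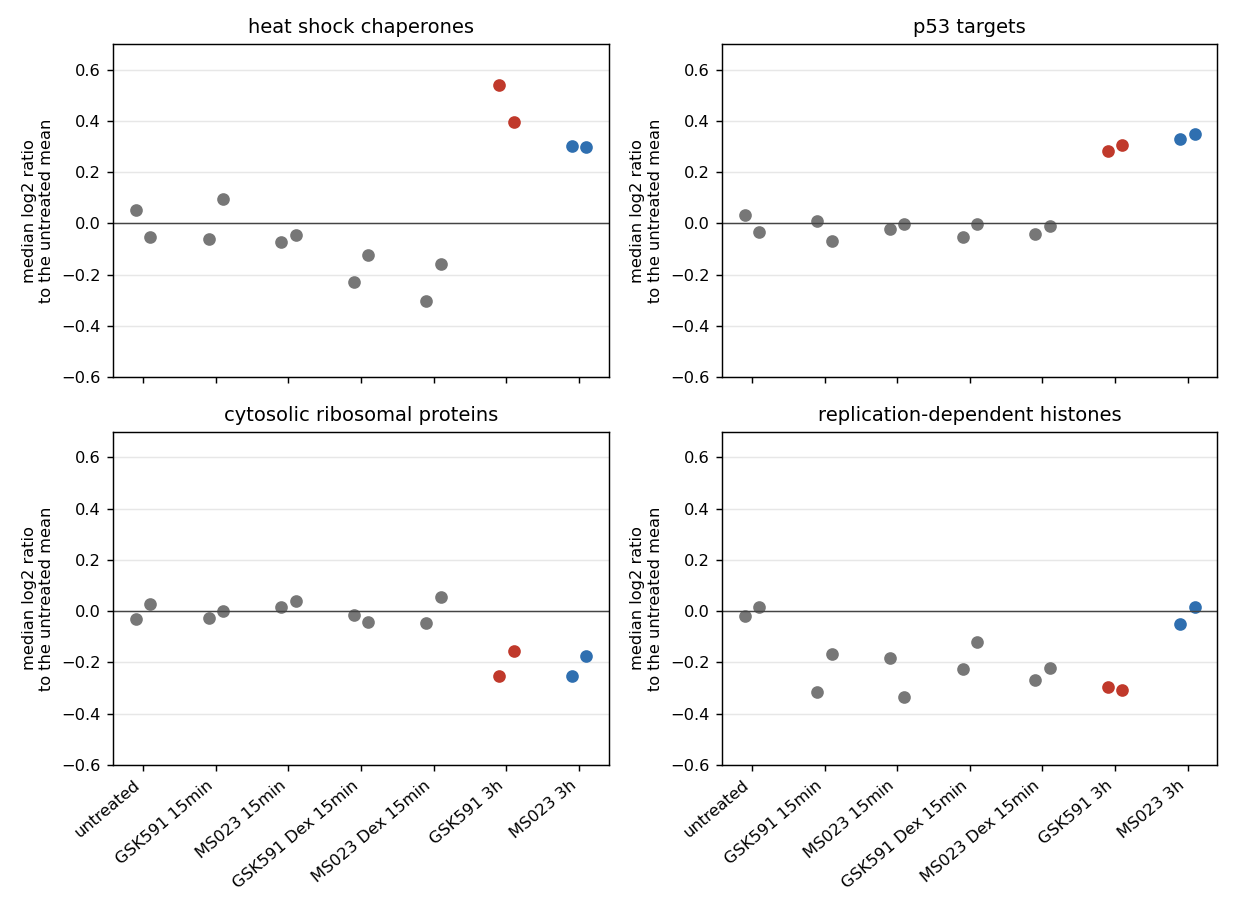
Median log2 ratio of 4 gene lists to the mean of the untreated libraries, for each of the 14 libraries (2 points per group; GSK591 3 h in red, MS023 3 h in blue). At 3 h of GSK591 the points lie at 0.54 and 0.40 for chaperones, 0.28 and 0.30 for p53 targets, -0.25 and -0.15 for ribosomal proteins and -0.29 and -0.31 for histones, and the histone points of the 15 min groups also lie below 0. At 3 h of MS023 the points lie at 0.304 and 0.298 for chaperones and at 0.33 and 0.35 for p53 targets. For ribosomal proteins they lie at -0.25 and -0.17, and for histones at -0.05 and 0.02.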

How the data were processed

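Nascent RNA was measured by PRO-seq in 14 libraries of A549 cells, 2 in each of 7 groups. Per the submitters' processing notes, the authors counted reads per gene with Subread featureCounts 2.0.1 on hg38, and the deposited matrix holds whole-number counts. The aligner, counting feature, strand setting and handling of duplicates are not given in the sources used here. The authors' deposited table of the same comparison, in the layout of DESeq2 per the file headers, gives log2 fold changes, p-values, a Wald score and a mean normalised signal; it was used only where named.

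All 58780 gene identifiers matched GENCODE release 29 (GRCh38), which gave the coordinates. Counts were tested in 1 fit over all 14 libraries with edgeR 4.0.16 in R 4.3.3 (TMM scaling, filterByExpr, quasi-likelihood test), which kept 21910 genes. A gene was called at a Benjamini-Hochberg adjusted p under 0.05 over all genes tested. SE is the log2 fold change divided by the square root of F, and intervals are at 95%. CPM values use TMM-scaled library totals. Library totals ranged from 5768312 to 9606938 counts over the 14 libraries. Samples were grouped by their labels. On simulated counts for GSK591 3 h against untreated, with 21366 genes tested, edgeR called 62.1% of 195 genes changed by a log2 fold change of 1 and 11 unchanged genes, and DESeq2 1.42.0 called 49.7% and 2.

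Genes were named by rule from the called genes that averaged 2 CPM or more over the 4 libraries with no overlap of the groups: the 12 protein-coding genes and 4 others with the largest rise and fall, and the 6 of at least 20 CPM. In each of 33 gene lists up to 4 called genes with the smallest p were named, and PRMT5, WDR77, PRMT1 and SNRPB always. Other list members are given with their values and were chosen after these were seen, and a few genes are not reported here. The comparison and the lists were chosen with earlier results of these data known. Alternatives were other scalings, no count filter or a stricter one, DESeq2, a fit of only the compared groups, the replicate number as a block and leaving out each library. Counting the main calls among genes without shared exons, with no new fit, was added after seeing the data. Promoter and microRNA sequences are from RefSeq (GRCh38.p14), with 1 start per gene, which can differ from the start in GENCODE.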

Additional observations from a re-analysis of the deposited data

Results flagged for a closer look

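The effect of GSK591 differed between 3 h and 15 min in a direct test: edgeR called 1405 genes at an adjusted p under 0.05, 799 higher and 606 lower at 3 h. FGF18 (1.75 ± 0.24 on the log2 scale) and NR4A1 (-1.004 ± 0.108) were among them. The number fell to between 388 and 665 when any of the 4 libraries was left out. Time in culture and time with the inhibitor cannot be told apart in it.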

How the results depend on the processing

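For GSK591 3 h against untreated, DESeq2 called 1342 genes (953 higher, 389 lower), library-size scaling called 197 lower, and a fit of only the groups compared called 1373 lower. Of the main calls, 1314 (884 and 430) were among the 12251 tested genes free of shared exons. That is a subset without a new fit, with shares of 7.22% higher and 3.51% lower, near those of all genes tested. Leaving out 1 library gave 1092 to 1412 called, 856 to 1056 higher and 236 to 400 lower. For 3 h against 15 min, DESeq2 called 659 (396 higher, 263 lower), library-size scaling 712 (130 lower), and leaving out 1 library gave 388 to 665, with 208 to 440 higher and 161 to 225 lower. Against MS023 3 h, DESeq2 called 5 (0 higher, 5 lower), the fit of only the groups compared 9 (7 and 2), no count filter 47 (21 and 26), and leaving out 1 library gave 0 to 6, with 0 to 1 higher and 0 to 5 lower. The cause of these moves was not tested, beyond the fewer samples or genes in a setting. The replicate numbers did not pair the samples: deviations of same-numbered libraries correlated at -0.07 to 0.10 over the pairs of groups, and at -0.01 for GSK591 3 h and untreated. With the replicate number as a block, 2537 genes were called against untreated, 1496 against 15 min and 5 against MS023 3 h (3 higher, 2 lower). Of 127 named genes, 123 were called, 73 of them under every alternative that gave an adjusted p. Calls were lost for 14 by DESeq2, 18 by library-size scaling and 25 to 34 by leaving out a library, and no called gene changed direction. List medians changed sign for nuclear lncRNAs (0.11 by library size, 0.02 without GSK591 3 h replicate 2, with -0.15 to 0.022 over the left-out libraries), glucocorticoid targets (0.12 by library size), TGF-beta and ID genes (0.13 by library size) and NRF2 targets (-0.024 without GSK591 3 h replicate 2). Most other medians within 0.15 of 0 also crossed 0 under some setting. Depth limits single values: totals were 7780485 to 9606938 counts, 43.55% to 54.05% of them mitochondrial.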
